A study of Homo sapiens with 6 samples.

Results

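The 10 genes described here are the members of the SOX family with counts enough to test in OE33 cells: SOX9, SOX4, SOX13, SOX12, SOX21, SOX2, SOX8, SOX15, SOX7 and SOX18. They are 10 of 58735 genes in the table and of 13768 genes tested. They were chosen by gene name and selected on having counts in these libraries. The lower levels of SOX9, SOX4 and SOX13 in exposed cells were known when the family was chosen, so the values of this contrast describe the members and are no independent evidence of their direction. SOX15, the member with the fewest reads, had 4 to 37 counts per library, and SOX30, the next gene below it, had 0 to 6. OE33 is an established human epithelial line from an adenocarcinoma of the esophagus. Control cells were untreated. ABS cells were given acidified bile salts, 200 µM in medium lacking supplements at pH 4.0, for 20 min as a model of acute reflux, and then had 6 h of recovery in complete medium. Each group had 3 biological replicates, all of this single line grown in RPMI1640 with serum, and all 6 libraries came from polyadenylated RNA. Since no group separates acid from bile salts, these cannot be told apart. Whether control cells also had a change of medium is not stated, so its part cannot be told apart either.

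SOX proteins are transcription factors that bind DNA through an HMG box, a domain that enters the minor groove and bends the helix, and they act with partner factors that decide which genes respond. The family is divided into lettered groups by the sequence of that domain. In the gut, SOX9 is found in progenitor cells of crypts and glands and is expressed in columnar metaplasia of the esophagus and in adenocarcinoma, whereas SOX2 marks the squamous esophagus and the stomach.

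The HMG box of the 3 genes that passed the test below is shown as coding DNA, to let their relation be read base by base. It was located as the stretch of 79 codons that SOX9 shares most with the other members, in GENCODE release 29 transcripts on GRCh38, and capitals mark bases that differ from SOX9. In SOX9 it encodes residues 102 to 180 of 509 and lies at chr17:72121695-72122827, with an intron in between. In SOX4 it lies at chr6:21594700-21594936, and in SOX13 at chr1:204123690-204124762, also across an intron, all on the plus strand.
SOX9: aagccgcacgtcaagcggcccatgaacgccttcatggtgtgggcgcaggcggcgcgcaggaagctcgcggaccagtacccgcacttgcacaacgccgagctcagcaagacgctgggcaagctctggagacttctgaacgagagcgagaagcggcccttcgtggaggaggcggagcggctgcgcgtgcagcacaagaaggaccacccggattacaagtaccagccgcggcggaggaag
SOX4: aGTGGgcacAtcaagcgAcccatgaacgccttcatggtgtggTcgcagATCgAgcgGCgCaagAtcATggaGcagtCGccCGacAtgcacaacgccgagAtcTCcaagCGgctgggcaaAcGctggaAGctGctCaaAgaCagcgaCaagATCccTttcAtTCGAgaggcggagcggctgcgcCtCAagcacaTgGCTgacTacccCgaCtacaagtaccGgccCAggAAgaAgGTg
SOX13: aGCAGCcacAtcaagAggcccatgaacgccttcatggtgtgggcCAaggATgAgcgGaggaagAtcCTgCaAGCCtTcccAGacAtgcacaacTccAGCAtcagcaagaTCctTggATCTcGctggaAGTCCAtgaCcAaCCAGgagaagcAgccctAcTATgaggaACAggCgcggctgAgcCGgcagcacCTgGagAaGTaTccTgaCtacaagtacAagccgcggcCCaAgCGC
SOX4 differed from SOX9 at 64 of 237 bases and SOX13 at 78 of 237. The encoded residues were identical to those of SOX9 at 60.8% of positions in SOX4 and 49.4% in SOX13. SOX8, the other group E member, shared 78 of 79 residues with SOX9 there and 91.1% of bases. The remaining 6 members shared 60.8% to 68.4% of residues with SOX9, so SOX13, of group D, was the most distant. The genes that passed the test belong to groups E, C and D. SOX8, the nearest relative of SOX9 in this domain, did not pass, with 117 to 206 counts per library. Its fitted level after ABS was 69.7% of control, beside 72.1% for SOX4 and 73.0% for SOX13, and its groups did not overlap. That SOX8 level was 60.5% within replicates 1 and 2 and 89.6% between the libraries of replicate 3.

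Library totals lay between 22145676 and 25235686 counts. A count of 3, the limit that a count of 0 allows, equalled 0.118 to 0.137 CPM (counts brought to one library size with TMM, trimmed mean of M values, factors), and such limits cover counting error only. Both replicate 3 libraries stood apart from the other 4. The chi-square statistic per degree of freedom was 4.77 between replicates 1 and 2 in each group and 6.74 between control and ABS replicate 3, against 13.6 to 18.9 for all other pairs, so values are also given apart for replicates 1 and 2 and for the replicate 3 pair. The 8 epithelial markers, the labelled cell type, summed to 22286 to 24721 CPM in control libraries and 22917 to 24277 CPM after ABS. The 7 fibroblast markers summed to 2.82 to 3.14 CPM and 2.59 to 4.11 CPM, with COL1A2, DCN and THY1 at 0 throughout. COL1A1, at 2.59 to 3.63 CPM over the 6 libraries, made up most of these sums. The 7 immune markers summed to 5.58 to 7.24 CPM and 5.77 to 6.45 CPM, with PTPRC, CD3E and NKG7 among those at 0. Most of this was CD14, at 4.55 to 6.01 CPM over the 6 libraries, and LYZ had 0.827 to 1.81 CPM. The 5 endothelial markers reached at most 0.0455 CPM in control and 0.275 CPM in ABS libraries.

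On a scale that corrects for gene length, TPM (counts per base of the gene, scaled to the same sum in each library), SOX9 was the most abundant SOX mRNA of control cells at 163, 160 and 176 TPM. Its mean over all 6 libraries stood at percentile 91.7 of the protein-coding genes with counts, and that of SOX4 at 85.7. SOX4 followed at 91.7 to 96.0 TPM. SOX21 at 28.8 to 46.7 TPM and SOX13 at 36.9 to 38.2 TPM overlapped and had no clear order at the deposited gene lengths. That length is 7420 bases for SOX13, against 3587 for its GENCODE transcript, and 2778 by both for SOX21. The place of SOX13 and the shares of SOX TPM given below depend on the length used. SOX2 came next at 11.5 to 17.5 TPM, then SOX8 at 6.85 to 7.55 TPM. The control ranges of SOX12, SOX18, SOX7 and SOX15 each overlapped the next in order, between 1.05 and 5.93 TPM. In each of the 6 libraries SOX9, SOX4 and SOX13 together made up 76.3% to 82.9% of the TPM of the 19 SOX genes in the table. The summed SOX level was 380, 373 and 373 TPM in the control libraries and 238, 237 and 251 TPM after ABS, so the groups were separate. The ABS mean was 64.5% of the control mean over all libraries and 67.3% in the replicate 3 pair. SOX9 took 43.0%, 43.0% and 47.0% of the control sums and 42.3%, 43.2% and 34.9% of the ABS sums, the last being ABS replicate 3. In bulk RNA, fewer cells with a transcript and less of it per cell cannot be told apart.

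**Figure D1:**
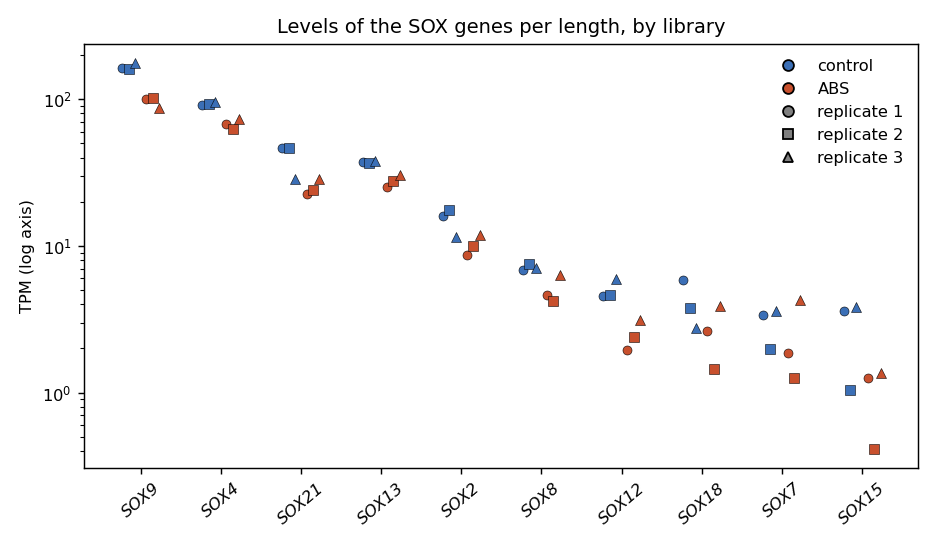
Levels of the 10 SOX genes in TPM on a log axis, with 1 point per library (blue for control, red for ABS, shapes for the replicate), ordered by the control mean, so that neighbouring ranges can be compared. SOX9 was highest in control libraries at 160 to 176 TPM and had 87.6 to 102 TPM after ABS. SOX21 and SOX13 overlapped in control libraries at the deposited gene lengths.

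By the edgeR quasi-likelihood test over all genes, 3 of the 10 members, SOX9, SOX4 and SOX13, fell after ABS and 0 rose at an adjusted p under 0.05. Over all tested genes 0.0654% were called lower and 0.370% higher, and nothing is read from the members' count, since it was known when they were chosen. An unadjusted edgeR p under 0.05 was found for 8 members and for 9.75% of all tested genes. DESeq2 called 5 members lower, where it called 0.658% of its tested genes lower, and limma-voom 3, where it called 0.0726%. All 10 fitted log2 fold changes were below 0, with a median of −0.62 and a range of −1.48 to −0.29, beside a median of 0.00 and 51.0% negative values over all tested genes. ABS libraries lay wholly below control libraries in 5 members, SOX9, SOX4, SOX13, SOX12 and SOX8, and wholly above in 0, where 6.95% of all tested genes lay wholly below. With any 1 of the replicate 1 and 2 libraries of either group left out, SOX9 was the 1 member called, whereas 5 were called without control replicate 3 and 4 without ABS replicate 3.

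**Figure D2:**
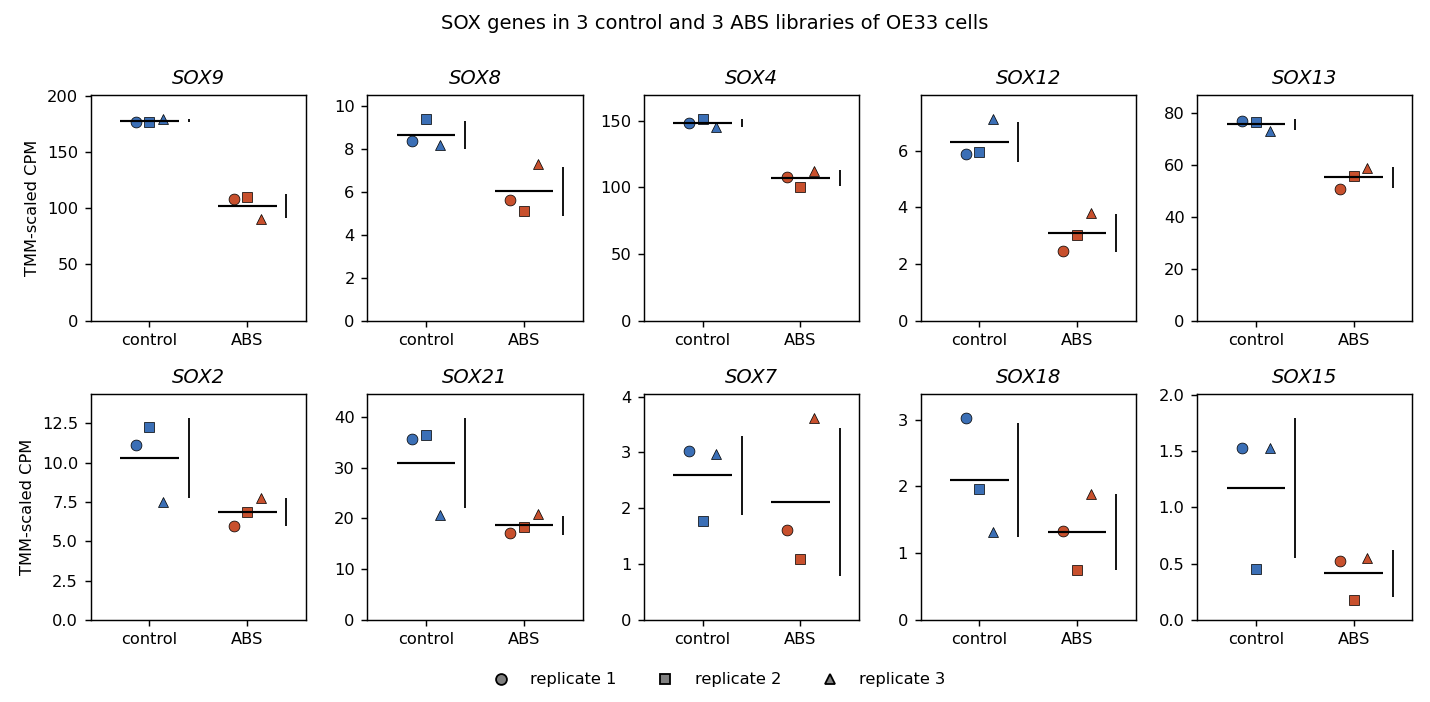
TMM-scaled CPM of each SOX gene by library, with each vertical axis starting at 0; lines are group means, vertical bars are 1 SD over 3 libraries and shapes give the replicate. In SOX9 the control points lie at 177 to 179 CPM and the ABS points at 90.0 to 110 CPM, while in SOX21 the replicate 3 control point, 20.7 CPM, lies beside the ABS points.

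Group E holds SOX9 and SOX8. SOX9 (ENSG00000125398, GRCh38 chr17:72121020-72126420, plus strand) had 4165, 3888 and 4327 counts in control libraries 1 to 3 and 2666, 2514 and 2292 in the ABS libraries. In CPM this was 177, 177 and 179 against 108, 110 and 90.0. The control libraries were nearly level, ABS replicate 3 was the lowest, and the groups did not overlap. SOX9 fell from 178 ± 1.15 to 102 ± 10.9 CPM (mean ± SD, n = 3), or to 57.7% of control. On the log2 scale this was −0.79 ± 0.08 (value ± SE), at an edgeR adjusted p of 9.33e-04. It was called in each of the 18 alternatives that had a test, and lay between −0.85 and −0.71 when 1 library was left out. In the replicate 3 pair SOX9 differed by −0.99, against −0.70 within replicates 1 and 2. The test of that difference gave −0.29 ± 0.10 with an edgeR adjusted p of 0.114.

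SOX8 (ENSG00000005513, chr16:981808-986979, plus strand), which shares roles with SOX9 in development, was a minor transcript. It had 8.37, 9.37 and 8.15 CPM in control cells and 5.61, 5.11 and 7.30 CPM after ABS. The groups did not overlap, and ABS replicate 3 lay closest to the controls. Its log2 fold change was −0.52 ± 0.18 with an edgeR adjusted p of 0.290. Within replicates 1 and 2 it was −0.72 with an edgeR adjusted p of 0.0110, and in the replicate 3 pair −0.16. SOX8 was called in 1 of 18 alternatives that had a test.

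Group C holds SOX4 and SOX12, single-exon genes whose products act in embryonic progenitors. SOX4, which is also expressed in many carcinomas (ENSG00000124766, chr6:21592768-21598619, plus strand), had 148, 151 and 145 CPM in control cells and 108, 100 and 112 CPM after ABS. The libraries of each group lay close together and the groups were separate. SOX4 fell from 148 ± 3.06 to 107 ± 6.01 CPM (mean ± SD, n = 3), or to 72.1% of control. In log2 this was −0.47 ± 0.07 with an edgeR adjusted p of 0.0134. Without control replicate 1 or 2 or ABS replicate 1 or 2, SOX4 was not called, at edgeR adjusted p of 0.110 (control 1), 0.144 (control 2), 0.135 (ABS 1) and 0.115 (ABS 2). The replicate 3 pair differed by −0.37 and replicates 1 and 2 by −0.52, and the difference between these was not called, with an edgeR adjusted p of 0.557.

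SOX12 (ENSG00000177732, chr20:325595-330224, plus strand) had 5.87, 5.96 and 7.11 CPM in control cells and 2.46, 3.02 and 3.81 CPM after ABS, from 131 to 172 and 61 to 97 counts. The groups did not overlap, and replicate 3 was the highest of each group. The fitted log2 fold change, −1.03 ± 0.22, was further from 0 than that of SOX9, but with an edgeR adjusted p of 0.0668 SOX12 did not pass. Without ABS replicate 3 it passed, with an edgeR adjusted p of 0.0204. SOX12 and NRSN2-AS1, on the opposite strand, overlap over all 4630 bases of SOX12, and the antisense gene had 12 to 24 counts.

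SOX13 (ENSG00000143842, chr1:204073115-204127743, plus strand) is the only group D gene among the members, and its product binds TCF factors of the Wnt pathway. It had 76.9, 76.8 and 73.3 CPM in control cells and 50.8, 56.0 and 58.9 CPM after ABS. The control libraries were nearly level, and the ABS libraries were lower without overlap, replicate 3 the least. SOX13 fell from 75.7 ± 2.01 to 55.3 ± 4.11 CPM (mean ± SD, n = 3), or to 73.0% of control. In log2 this was −0.45 ± 0.08 with an edgeR adjusted p of 0.0344. Without control replicate 1 or 2 or ABS replicate 1 or 2, SOX13 was not called, at edgeR adjusted p of 0.201, 0.244, 0.277 and 0.160 in that order. Scaling by library size alone also ended the call, with an edgeR adjusted p of 0.0638. SOX5 and SOX6, the other group D genes in the table, had 0 to 2 and 0 to 4 counts per library and were not tested.

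Group B holds SOX2, a factor of stem cells and of squamous epithelium, and SOX21, described as a repressor of genes that SOX2 activates. SOX21 (ENSG00000125285, chr13:94709622-94712399, minus strand) had 35.7, 36.4 and 20.7 CPM in control cells and 17.1, 18.4 and 20.8 CPM after ABS. Control replicates 1 and 2 were high, and control replicate 3 lay beside the 3 ABS libraries. Over all libraries SOX21 had a log2 fold change of −0.72 ± 0.18 with an edgeR adjusted p of 0.115. Within replicates 1 and 2 alone it was −1.02 with an edgeR adjusted p of 1.23e-08, and in the replicate 3 pair it was 0.00. Without control replicate 3 SOX21 passed, with an edgeR adjusted p of 3.42e-04.

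SOX2 (ENSG00000181449, chr3:181711924-181714436, plus strand) had 11.1, 12.3 and 7.49 CPM in control cells and 5.97, 6.86 and 7.77 CPM after ABS. Control replicate 3 again lay among the ABS libraries, so the groups overlapped. Over all libraries SOX2 had a log2 fold change of −0.58 ± 0.20 with an edgeR adjusted p of 0.286. Within replicates 1 and 2 it was −0.87 with an edgeR adjusted p of 7.42e-04, and in the replicate 3 pair it was 0.05. Without control replicate 3 SOX2 passed, with an edgeR adjusted p of 0.0248.

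Group F, SOX7 and SOX18, is known for roles in vessels, and group G is SOX15, whose HMG box resembles that of SOX2. All were near the lower end of what could be tested. SOX18 (ENSG00000203883, chr20:64047582-64049641, minus strand) had 3.02, 1.96 and 1.32 CPM in control cells and 1.33, 0.743 and 1.88 CPM after ABS. SOX7 (ENSG00000171056, chr8:10723768-10730512, minus strand) had 3.02, 1.77 and 2.98 CPM against 1.61, 1.09 and 3.61 CPM. The groups overlapped in both genes, which at 17 to 92 counts per library had log2 fold changes of −0.66 ± 0.42 and −0.29 ± 0.41 and edgeR adjusted p of 0.670 and 0.887. SOX15 (ENSG00000129194, chr17:7588178-7590170, minus strand) had 1.53, 0.455 and 1.53 CPM in control cells and 0.524, 0.175 and 0.549 CPM after ABS. Replicate 2 was the lowest library of each SOX15 group, and the groups overlapped. Its log2 fold change of −1.48 ± 0.58 was the furthest from 0 among the members and had the widest error, with an edgeR adjusted p of 0.402. MPDU1, on the opposite strand, overlaps all 1993 bases of SOX15 and had 1828 to 1938 counts, and whether the counting used strand is not stated, so reads of the 2 genes may not be told apart. Other members overlap genes with few counts. On the same strand, SOX2-OT (0 to 6 counts) covers 2513 bases of SOX2, and a PINX1 entry with 0 counts covers 5114 bases of SOX7. SOX9-AS1 (2 to 15 counts) covers 5401 bases of SOX9 on the opposite strand.

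The 9 SOX genes outside the 10 were SOX1, SOX3, SOX5, SOX6, SOX10, SOX11, SOX14, SOX17 and SOX30. SOX3, SOX14 and SOX17 had 0 counts in all 6 libraries. SOX30 had 6, 2 and 0 counts in control and 4, 6 and 0 in ABS libraries, and SOX10 had 3 counts in control replicate 3 alone. SOX1 and SOX11 had at most 2 counts in a library. None of these 9 passed the filter on low counts, so SOX10, the third group E gene, and SOX11, the third group C gene, were not detectable as changed at this depth.

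Replicates 1 and 2 were then set against the replicate 3 pair. Within replicates 1 and 2 the edgeR test called 7 of the 10 members lower, SOX9, SOX4, SOX13, SOX12, SOX21, SOX2 and SOX8, where 5.33% of all genes tested there were called lower. The members' median was −0.84, against −0.01 over all genes. In the replicate 3 pair, with 1 library a group and no test, 6 members were below 0, the median was −0.24 against 0.00 over all genes, and SOX21, SOX2, SOX7 and SOX18 lay at 0.00, 0.05, 0.28 and 0.51. The difference between these 2 values was tested for each gene as an interaction over all 6 libraries, which leaves 2 residual degrees of freedom and rests on 1 library per group for replicate 3. SOX21 was the only member called, with an interaction of 1.03 ± 0.19 (log2) and an edgeR adjusted p of 7.66e-04, where 2.38% of all tested genes were called. For SOX2 the interaction was 0.92 ± 0.31 with an edgeR adjusted p of 0.123, and for SOX18 it was 1.76 ± 0.78 with an edgeR adjusted p of 0.299. SOX4, SOX13 and SOX12 had interactions of 0.15 ± 0.10, 0.21 ± 0.13 and 0.21 ± 0.43 and were not called, at edgeR adjusted p of 0.557, 0.517 and 0.895. The labels give no batch that would name what sets the replicate 3 libraries apart, and its part in these values was not tested.

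**Figure D3:**
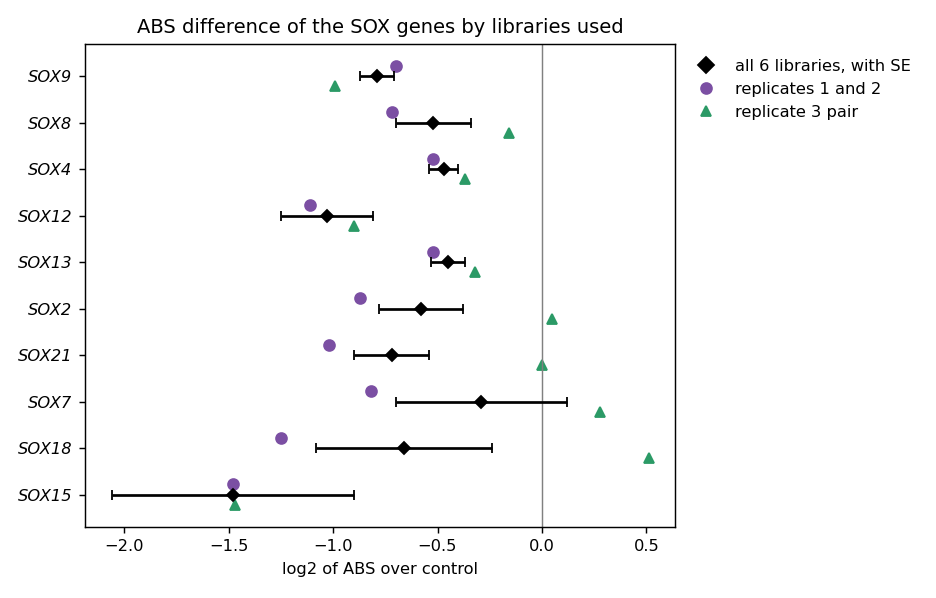
ABS against control differences in log2 for each SOX gene over all 6 libraries, within replicates 1 and 2 and in the replicate 3 pair; the horizontal bars are 1 SE and belong to the values over all 6 libraries. SOX9, SOX4 and SOX13 lie below 0 in all 3, while SOX21 moves from −1.02 within replicates 1 and 2 to 0.00 in the replicate 3 pair.

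SOX2 and SOX21, the 2 group B members, both passed within replicates 1 and 2 and had values near 0 in the replicate 3 pair, and the 250 bases before their RefSeq starts on GRCh38.p14 are shown for that reason. The SOX2 window is chr3:181711675-181711924 on the plus strand and the SOX21 window is chr13:94712546-94712795 on the minus strand, whose start stands at −146 bases from that of the table. Capitals mark CCAAT and TATAAA on either strand.
SOX2: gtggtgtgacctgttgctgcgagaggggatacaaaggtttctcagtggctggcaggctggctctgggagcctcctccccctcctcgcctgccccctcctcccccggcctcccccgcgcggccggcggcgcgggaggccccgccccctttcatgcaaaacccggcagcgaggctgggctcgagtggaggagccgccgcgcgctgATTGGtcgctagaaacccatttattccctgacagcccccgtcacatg
SOX21: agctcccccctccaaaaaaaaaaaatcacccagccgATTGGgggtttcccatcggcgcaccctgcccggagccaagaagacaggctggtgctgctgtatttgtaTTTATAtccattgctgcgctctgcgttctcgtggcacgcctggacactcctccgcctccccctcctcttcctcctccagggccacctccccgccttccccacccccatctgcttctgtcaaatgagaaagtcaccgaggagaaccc
Each holds 1 CCAAT box, a motif found in 32.0% of 35116 promoter windows of the same length. It is not particular to these genes, as the matched windows of SOX4, SOX12 and SOX13 hold 4, 1 and 0. The SOX21 window also holds 1 TATAAA, found in 10.7% of windows, and the SOX2 window holds 0. It is printed as TTTATA, so it lies on the plus strand, opposite to SOX21. This window also contains the start of the long non-coding gene SOX21-AS1, at chr13:94712716 on the plus strand. The windows had 68.8% and 58.8% G and C, beside a median of 58.0% over all windows. A match describes the letters and is no measured site. Windows were matched for SOX4, SOX13, SOX12, SOX21 and SOX2, 5 of the 10 members.

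SOX21-AS1, a long non-coding gene that starts 0.317 kb upstream of SOX21 on the opposite strand, had 18.9, 20.8 and 12.9 CPM in control and 13.4, 13.4 and 12.3 CPM in ABS libraries. Control replicate 3 was low here too, beside the ABS libraries. Its log2 fold change was −0.42 ± 0.16 with an edgeR adjusted p of 0.382, −0.56 within replicates 1 and 2 with an edgeR adjusted p of 0.00238, and −0.07 in the replicate 3 pair. Without control replicate 3 it passed, with an edgeR adjusted p of 0.0171. SOX9-AS1 had 2 to 15 counts and SOX2-OT 0 to 6 counts per library, too few to test.

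Among the 211 tested genes that start within 1 Mb of a member's start, 1 rose and 0 fell by the edgeR test. DESeq2 called 2 higher and 1 lower, and limma-voom 1 and 0. Over all their tested genes DESeq2 called 0.658% lower and limma-voom 0.0726%, and the shares called higher were not counted. The median log2 fold change of these neighbours was −0.08, and 146 of 211 were below 0, beside a median of 0.00 and 51.0% negative values over all tested genes. SOX8 and SOX15, which were not called, had the most neighbours, with 53 of 72 and 45 of 59 below 0. Near SOX9 2 of 4 were below 0, with a median of 0.13, and near SOX13 10 of 16, with a median of −0.05. The gene that rose, LINC00511 (ENSG00000227036, chr17:72290091-72640472, minus strand), is a long non-coding gene whose start lies 519 kb downstream of that of SOX9. It had 49.0, 56.8 and 49.7 CPM in control and 95.1, 91.6 and 84.5 CPM in ABS libraries. The groups were widely separate and in the opposite order to SOX9. The log2 fold change of LINC00511 was 0.80 ± 0.09 with an edgeR adjusted p of 9.74e-04, 0.82 within replicates 1 and 2 and 0.77 in the replicate 3 pair. The other 3 neighbours of SOX9 were not called, and SLC39A11, 972 kb downstream, had −0.07 with an edgeR adjusted p of 0.871. No tested gene other than SOX4 itself started within 1 Mb of it. The gene nearest to SOX13 was ETNK2, 78.9 kb away, at −0.32 with an edgeR adjusted p of 0.533, and the one nearest to SOX12 was NRSN2, 21.2 kb away, at −0.26 with an edgeR adjusted p of 0.799. DNAJC19 near SOX2 had −0.09, PINX1 near SOX7 −0.08, AC009041.2 near SOX8 −0.35, AC016876.1 near SOX15 0.29 and TCEA2 near SOX18 −0.21 in log2, all at edgeR adjusted p of 0.770 or above.

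**Figure D4:**
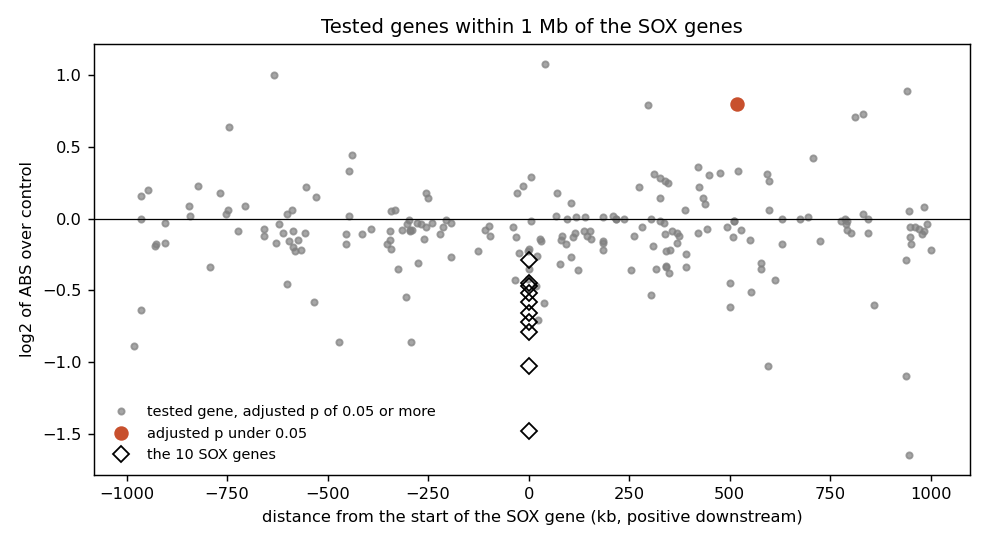
Log2 fold change of each tested gene within 1 Mb of a SOX gene against its distance from that gene's start in kb, with the SOX gene at 0. The coloured point, LINC00511 at 0.80, lies 519 kb downstream of SOX9. It is the 1 neighbour of 211 that passed, where 0.370% of all tested genes were called higher. All 10 SOX genes, drawn as open diamonds, lie below 0.

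Lists of factors, pathways and targets around SOX proteins were described next, and 0 genes of any of them were called by the edgeR test over all 6 libraries. Counts at an unadjusted p under 0.05 stand beside 9.75% of all tested genes. Genes called lower by DESeq2 and limma-voom stand beside 0.658% and 0.0726% of their tested genes. The shares that these methods called higher were not counted. Of the TCF/LEF factors, HMG box proteins that carry the Wnt signal to DNA, 3 of 4 were tested and 0 had an unadjusted p under 0.05. TCF7, TCF7L2 and LEF1 had log2 fold changes of −0.17, −0.09 and −0.09, at edgeR adjusted p of 0.697, 0.827 and 0.968. Of 21 coactivators, corepressors and turnover factors of SOX proteins, all 21 were tested, 2 had an unadjusted p under 0.05 and the median was 0.02. TLE3, a corepressor, had −0.32 over all libraries with an edgeR adjusted p of 0.295, SMAD3, an effector of TGF-beta signalling, 0.17 with 0.422, and POU2F1, a POU factor, −0.17 with 0.623. DESeq2 and limma-voom called 0 in both lists.

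Among pathways that act upstream of SOX9 in the gut, the Wnt targets had 8 of 11 tested, 2 with an unadjusted p under 0.05, and a median of −0.10. RNF43 and ZNRF3, which remove Wnt receptors, had −0.67 and −0.14 at edgeR adjusted p of 0.279 and 0.700, and TNFRSF19 had 0.47 at 0.180. The Notch list had 12 of 15 tested, 3 with an unadjusted p under 0.05, and a median of −0.02. LFNG, which modifies Notch receptors, had 51.8, 52.0 and 54.8 CPM in control and 33.0, 32.9 and 42.4 CPM in ABS libraries. The groups were separate, with ABS replicate 3 the least low, and LFNG just missed the threshold at −0.55 ± 0.11 with an edgeR adjusted p of 0.0519. DESeq2 and limma-voom each called 1 Notch gene lower. JAG2, a Notch ligand, had −0.42 at an edgeR adjusted p of 0.208 and HES1, a Notch target, 0.21 at 0.314. The hedgehog and BMP list had 14 of 21 tested, 4 with an unadjusted p under 0.05, and a median of −0.07. ID1, a BMP target, went from 382 to 288 CPM on average, −0.41 with an edgeR adjusted p of 0.175, and GLI2, a hedgehog effector, from 23.2 to 36.9 CPM, 0.67 with 0.164. SUFU, an inhibitor of GLI proteins, had −0.43 at an edgeR adjusted p of 0.218. DESeq2 called 1 higher and 1 lower in this list, and limma-voom called 0. Among the Wnt targets both methods called 0.

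Lists of genes described as targets follow. Of the SOX9 list for epithelium, 10 of 14 were tested, 1 had an unadjusted p under 0.05, the median was 0.01, and 5 of 10 were below 0. This list was not divided by whether SOX9 raises or lowers a gene, so these signs do not measure a response to SOX9. CDX2, an intestinal factor, had 21.0 CPM on average in control and 28.6 CPM in ABS cells, a log2 fold change of 0.45 with an edgeR adjusted p of 0.414. KRT19 and IGFBP4 had −0.08 and −0.10 at edgeR adjusted p of 0.820 and 0.827, and DMBT1 and PROM1 had 0 counts. Of the cartilage genes that SOX9 activates in chondrocytes, 2 of 12 were tested, MATN3 at −0.55 and COL9A3 at 0.09, with edgeR adjusted p of 0.631 and 0.922. COL2A1, COL11A2, HAPLN1, COMP and MIA had 0 counts in all 6 libraries. Of the SOX4 targets 16 of 17 were tested, 3 had an unadjusted p under 0.05, and the median was 0.04. MYB, a transcription factor, went from 10.5 to 6.52 CPM on average, −0.69 ± 0.17 with an edgeR adjusted p of 0.111. FZD5, a Wnt receptor, had 0.24 at an edgeR adjusted p of 0.330 and EGFR 0.22 at 0.507. Of SOX2 partners and squamous genes 6 of 12 were tested, 1 had an unadjusted p under 0.05, and the median was 0.07. KLF4, KLF5 and SALL4 had 0.31, 0.10 and −0.54 at edgeR adjusted p of 0.262, 0.767 and 0.812, and NANOG and LIN28B had 0 counts. DESeq2 called 1 SOX4 target lower, and otherwise DESeq2 and limma-voom called 0 in these 4 lists.

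Several of these genes differed between the 2 sets of replicates. Within replicates 1 and 2 alone, where 5.33% of all genes were called lower and 7.83% higher, the edgeR test called 1 of the partners and turnover factors lower and 2 higher, 1 and 1 of the Wnt targets, 2 and 1 of the Notch list and 3 and 2 of the hedgehog and BMP list. It called 1 and 0 of the SOX9 targets in epithelium, 2 and 4 of the SOX4 targets and 0 and 2 of the SOX2 list there, and 0 of the TCF/LEF factors and cartilage genes in either direction. The interaction with replicate 3, called for 2.38% of all tested genes, was called for 3 hedgehog and BMP genes, 2 SOX9 targets in epithelium, 2 SOX4 targets, 1 partner and 1 Notch gene. ID1 had 425, 417 and 304 CPM in control and 268, 280 and 315 CPM in ABS libraries. As in SOX21, control replicate 3 lay among the ABS libraries. ID1 was −0.62 within replicates 1 and 2, with an edgeR adjusted p of 4.20e-11, and 0.05 in the replicate 3 pair, with an edgeR adjusted p of 1.89e-06 for the interaction. TLE3 was −0.48 within replicates 1 and 2 (edgeR adjusted p of 4.00e-06) and 0.04 in the replicate 3 pair (edgeR adjusted p of 0.00961 for the interaction). CDX2 had 26.1, 23.0 and 13.9 CPM in control and 27.1 to 29.6 CPM in ABS libraries, so control replicate 3 was far below the other 5. CDX2 was 0.21 within replicates 1 and 2 (edgeR adjusted p of 0.219) and 1.06 in the replicate 3 pair (edgeR adjusted p of 0.00961 for the interaction). EGFR was 0.34 within replicates 1 and 2 (edgeR adjusted p of 5.70e-06) and 0.00 in the replicate 3 pair (edgeR adjusted p of 0.0171 for the interaction). LFNG, JAG2, GLI2 and MYB passed within replicates 1 and 2, at −0.66, −0.56, 0.67 and −0.82 with edgeR adjusted p of 3.48e-06, 6.59e-05, 3.46e-05 and 0.00155. In the replicate 3 pair these genes had −0.37, −0.18, 0.68 and −0.39, in the same direction, and their interactions were not called.

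The genes whose levels over the 6 libraries were most like those of SOX9, SOX4 and SOX13 were taken from 9721 protein-coding genes with a mean of at least 5 CPM, by the root mean square difference of mean-centred log2 CPM. For SOX9 they were HDAC11 at 0.112, ERRFI1 at 0.149, NR6A1 at 0.152, CAMKK1 at 0.181 and MEX3A at 0.184. Their log2 fold changes, which the likeness fixes in part, were −0.59, −0.55, −0.74, −0.73 and −0.70. For SOX4 they included C1orf226 at 0.0452, CCDC51 at 0.0484, OGT at 0.0545 and TANGO6 at 0.0646. For SOX13 they included FBXL15 at 0.0295, CCDC51 at 0.0509, OGT at 0.0577 and SPC24 at 0.0612. CCDC51 and OGT stood in both of the last lists, and all of these are descriptions with no test.

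The 3′ untranslated regions of the members were read for AU-rich pentamers (ATTTA), which are known to mark mRNAs of short life. In GENCODE release 29 that of SOX9 was 2033 bases long with 8 ATTTA, or 3.94 per kb, and that of SOX2 1122 bases with 5, or 4.46 per kb. SOX4 had 4 in 2660 bases, SOX21 4 in 1597 bases, SOX7 3 in 1970 bases, SOX8 2 in 1593 bases, SOX13 1 in 1609 bases, SOX18 1 in 584 bases, and SOX12 and SOX15 had 0 in 3352 and 200 bases. The median over 11727 tested coding genes was 1.60 per kb. SOX9, SOX2, SOX21 and SOX18 were above that median, and the other 6, SOX4 and SOX13 among them, were below it. SOX9 was the only member with the longer nonamer TTATTTATT, which 8.61% of those genes hold. The nonamer starts 1121 bases after the stop codon, at chr17:72125508-72125516 on the plus strand. It is shown in capitals with 10 bases on either side, a stretch that spans chr17:72125498-72125526.
SOX9: cttgctaaaaTTATTTATTttgtaaggag
RNA stability was not measured here, and the matches describe the letters.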

How the data were processed

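Polyadenylated RNA of 6 OE33 libraries, 3 control and 3 ABS, was analysed from the deposited table of raw counts per gene, whole numbers that the authors made with HISAT2 2.0.5 and featureCounts 1.5.0-p3 on GRCh38 (hg38), per the submitters' processing notes. The roles of these tools, the annotation, how strand was handled and how multiply mapped reads were counted are not given in the sources used here. All 58735 gene identifiers had the same coordinates in GENCODE release 29, which supplied transcripts.

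Genes were kept by filterByExpr (minimum count 10, minimum total 15) and tested with edgeR 4.0.16 in R 4.3.3 by a quasi-likelihood F-test with group as the only term and TMM scaling. P-values were adjusted by Benjamini-Hochberg over all 13768 kept genes, threshold 0.05, and the SE was the log2 fold change over the square root of F. TPM came from the counts and the deposited gene lengths. DESeq2 1.42.0 and limma 3.58.1 (voom) were alternatives, beside other scalings and filters, a replicate block, a term for replicate 3 and leaving out each library. The procedure was tested on simulated data. The labels call the replicates biological, and do not say whether cultures were shared, so p-values measure the spread between these samples.

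The members and gene lists were chosen with earlier results of these data known. Named were all SOX genes, up to 3 tested genes per list with the smallest adjusted p, neighbours that passed or lay nearest, and the 5 genes most like SOX9, SOX4 and SOX13 in profile, a few of which are not reported here. Replicate numbers were not taken to pair samples.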

Additional observations from a re-analysis of the deposited data

Results flagged for a closer look

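SOX21 differed between the 2 sets of replicates. The ABS difference was 0.00 in the replicate 3 pair and −1.02 within replicates 1 and 2, and the interaction test gave 1.03 ± 0.19 (log2) with an edgeR adjusted p of 7.66e-04. The interaction was called in 11 of 11 alternatives, between 0.97 and 1.08, at adjusted p of 3.14e-05 to 0.00125. All 11 kept both replicate 3 libraries, so their likeness cannot show whether the value depends on those libraries. The value rests on 1 replicate 3 library in each group: control replicate 3 had 20.7 CPM, against 35.7 and 36.4 CPM in the other control libraries, and ABS replicate 3 had 20.8 CPM, against 17.1 and 18.4 CPM. What sets the replicate 3 libraries apart was not tested.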

How the results depend on the processing

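Of the 10 SOX genes, 3 were called lower, and 5 under no filter on low counts, 5 by DESeq2, 5 with a replicate block, 5 with a term for replicate 3, 7 within replicates 1 and 2 only, and 1 when tested against a 1.2-fold change, an alternative chosen after seeing the data. Leaving out 1 library gave 1 to 5. SOX9 was called in 18 of 18 alternatives with a test, SOX4 in 13 and SOX13 in 12. The log2 fold change of SOX7 ranged from −0.93 to 0.01 when 1 library was left out, the last without ABS replicate 2. The interaction of SOX15, 0.01 ± 0.88, became −0.05 by limma-voom, −1.11 without control replicate 1 and −0.55 without ABS replicate 2, in a range of −1.11 to 1.01. The cause of these changes was not tested. SOX15 has no value under the filter on a mean of at least 1 CPM, which drops it. Over all genes 60 were called, from 12 without control replicate 2 to 438 without control replicate 3, and 1813 within replicates 1 and 2. For the block, samples of the same number correlated in their deviations from the group means at 0.0425, 0.0333 and 0.167, so the numbers were not taken to pair the samples, and control replicate 1 correlated best with ABS replicate 2. With the block 350 genes were called in all. SOX7, SOX18 and SOX15 had at most 92 counts in a library. Their libraries also differed within a group, as in SOX7 with 40, 25 and 92 ABS counts. The part of depth in these values was not tested.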
